A study of Homo sapiens with 6 samples.

Results

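The olfactory receptor genes of chromosomes 1 and 11 were followed through the compartment scores of 6 TCC libraries of T47D cells. Members were taken by name and position alone, as protein-coding genes of GENCODE on these chromosomes whose symbol is OR followed by a number, letters and a number. There were 234 of them among 20098 protein-coding genes on 23 chromosomes, 63 on chromosome 1 and 171 on chromosome 11. T47D is an established line of breast cancer cells that express the estrogen receptor. The parental cells were starved of hormone for 72 h and collected before treatment (T0) or after 1, 4, 16 or 24 h with 100 nM β-Estradiol, E2 (T1, T4, T16 and T24). Tamoxifen-resistant T47D cells (TamR) were the sixth condition. The labels list them as untreated, and the methods of the study describe TamR cells as kept with 100 nM tamoxifen in medium with stripped serum. Whether TamR cells were under drug when collected is not settled by these sources, so resistance and culture conditions cannot be told apart.

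TCC is a form of Hi-C that ligates crosslinked DNA on a solid surface and reads which regions touch. The genome (hg19) is cut into bins of 100 Kb, and each bin has 1 score, its value in the first eigenvector of the corrected contact matrix, printed here multiplied by 1000. Bins with a score above 0 belong to compartment A, which is open and gene-rich, and bins with a score below 0 to compartment B, which is compact and largely silent. A score of 0 marks a bin without a value. Because scores are scaled within a library, sizes were compared between libraries as percentiles, the rank of a bin among all scored bins of its library from 0 (deepest B) to 100 (strongest A). Each condition has 1 library, so no difference below has a replicate check or a test, and the files give no depth for any score. A score is an average over a population of cells, and it says nothing of whether a gene was transcribed.

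Olfactory receptors are G protein-coupled receptors that sit in the cilia of olfactory sensory neurons and bind odorants. They are the largest gene family of the human genome and lie in tandem arrays, with a coding sequence in a single exon. Each olfactory neuron expresses 1 receptor from 1 allele, and in these neurons the remaining receptor genes are packed into heterochromatin. Outside the nose the family is mostly silent, with known exceptions such as OR51E2 in the prostate and OR2AT4 in the skin. Class I receptors (families OR51, OR52 and OR56) resemble those of fish, and class II receptors are the larger class of land vertebrates.

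Starts of neighbouring genes at most 1 Mb apart were joined into clusters, lettered in genome order. This gave 10 clusters with 233 genes, and 1 gene, OR2AT4, stood alone. On chromosome 1, cluster A at the tip of the short arm held OR4F5, OR4F29 and OR4F16, whose bins had no score in any library. OR4F29 and OR4F16 are near-identical copies. Cluster B (chr1:158369256-159505797) held 17 genes, from OR10T2 to OR10J5. Cluster C (chr1:247621407-248845629), near the end of the long arm, held 43 genes, from OR2B11 to OR14I1. On the short arm of chromosome 11, cluster D (chr11:4389616-7963255) was the longest and held 67 genes, among them all 55 class I genes. Cluster E (chr11:48238362-48510345) held 7 genes, cluster F (chr11:49973943-50004071) 2 and cluster G (chr11:51412448-51515282) 3, all of family OR4. Clusters H (chr11:55110677-56756389), I (chr11:57791353-59481318) and J (chr11:123625226-124436556) lie on the long arm and held 48, 21 and 22 genes. The genes with a score, 231, fell into 87 bins with up to 7 members each. Genes in 1 bin share its score, so bins rather than genes are counted below unless stated.

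The start regions of these genes set them apart from other genes in base composition. In the 250 bases before the annotated start, the median GC content was 36.8% for the 234 members and 59.6% for all 20098 protein-coding genes. The median number of CpG pairs in these bases was 1 and 14. No CpG was present for 31.2% of the members, against 3.71% of all genes. Of 234 members, 99 have an annotated start at the start codon itself, so their window may not be a promoter. Leaving these out, 135 members had a median GC content of 39.6% and again a median of 1 CpG. The motifs were searched on both strands. TAATTA, the core bound by homeodomain factors such as LHX2, was found before 28 of the 135 genes, or 20.7%, against 3.33% of the 19638 protein-coding genes with a start before the codon. TATAAA was found before 35, or 25.9%, against 9.75%. The Olf-1 motif of the EBF factors was found before 4, or 2.96%, against 1.17%. Motifs overlapped in the window of 1 member. A match is a description of the letters, which follow base composition, and not a bound site.

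The windows of 3 members are shown in GRCh37 bases, which are those of hg19, each 5′ to 3′ on the strand of its gene and with TAATTA in capitals. OR10K2 lies in the bin that was furthest below its T0 percentile in TamR, and OR5AN1 and OR8B8 lie in 2 of the 5 bins furthest above it. All 3 have an annotated start before the codon.
OR10K2, chr1:158396028-158396277, minus strand: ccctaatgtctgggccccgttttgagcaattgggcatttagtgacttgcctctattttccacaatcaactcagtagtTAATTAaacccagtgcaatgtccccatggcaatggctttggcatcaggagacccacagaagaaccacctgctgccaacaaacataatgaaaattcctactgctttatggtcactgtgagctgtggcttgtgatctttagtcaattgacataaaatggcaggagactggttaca
OR5AN1, chr11:59126118-59126367, plus strand: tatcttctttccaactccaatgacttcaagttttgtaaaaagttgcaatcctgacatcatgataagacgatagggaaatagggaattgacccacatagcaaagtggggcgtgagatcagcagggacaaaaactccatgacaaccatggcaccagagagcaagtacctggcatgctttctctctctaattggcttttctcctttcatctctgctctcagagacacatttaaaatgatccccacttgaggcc
OR8B8, chr11:124315593-124315842, minus strand: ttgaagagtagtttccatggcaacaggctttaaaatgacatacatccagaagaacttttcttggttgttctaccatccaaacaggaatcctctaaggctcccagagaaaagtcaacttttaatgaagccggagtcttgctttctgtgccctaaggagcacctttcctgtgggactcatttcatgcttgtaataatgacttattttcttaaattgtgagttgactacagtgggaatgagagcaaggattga
Their GC contents are 44.4% for OR10K2, 43.6% for OR5AN1 and 40.4% for OR8B8, with 1, 2 and 1 CpG pairs, all above the median GC content of the members and below that of all genes.

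The receptor genes lay in compartment B in every condition. Of 231 genes, 229 had a negative score in all 6 libraries (99.1%), and by bins 85 of 87 did (97.7%), against a background of 44.6% of all 27898 scored bins. Of all protein-coding genes 16.2% were negative in all 6 libraries, and of the other protein-coding genes of chromosomes 1 and 11 14.5% were. Both exceptions are single genes, OR2AT4 and OR10V1. OR2AT4, a receptor for a sandalwood odorant that is known from keratinocytes, had scores of 8.11, 8.09, 7.95, 8.05 and 7.77 from T0 to T24 and 7.69 in TamR. Its level was nearly flat, at percentile 88.5 in T0, 87.6 in T24 and 87.6 in TamR. The GC content of its bin, 46.9%, was the highest of the 87 bins, whose median was 37.9%.

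The clusters lay deep in B, not close to its border. The median member bin stood at percentile 8.69 in T0, and 81.6% of member bins were below percentile 20. By genes, 86.6% of the members were below it, against 4.82% of all protein-coding genes. In T0 the lowest score of all members was −9.06, in the bin of OR4A16 and OR4A15 at the centromere side of cluster H, at percentile 0.361. The lowest bin of cluster C, with OR2L3 and OR2L13, scored −8.95, and that of cluster B, with OR10J4 and OR10J1, scored −8.86. The lowest bins of the other clusters were close to these, at −8.30 (OR8D4, J), −8.18 (OR4C13, F), −8.01 (OR2D2 and OR2D3, D), −7.90 (OR4A47, E), −7.90 (OR5AN1 and OR5A2, I) and −7.11 (OR4A5 and OR4A8, G). The upper ends differed more from cluster to cluster. OR10V1 in cluster I scored −1.30, OR4C46 in cluster G −1.34 and OR52W1 in cluster D −2.95, all near the border. The highest bin of cluster H, with OR9G4 and OR5G3, scored −5.06, that of cluster C, with OR2T2, OR2T3 and OR2T5, −5.10 and that of cluster B, with OR10T2 and OR10K2, −5.26. Those of J (OR10D3), E (OR4B1, OR4X2 and OR4X1) and F (OR4C12) scored −5.61, −6.33 and −7.64.

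**Figure D1:**
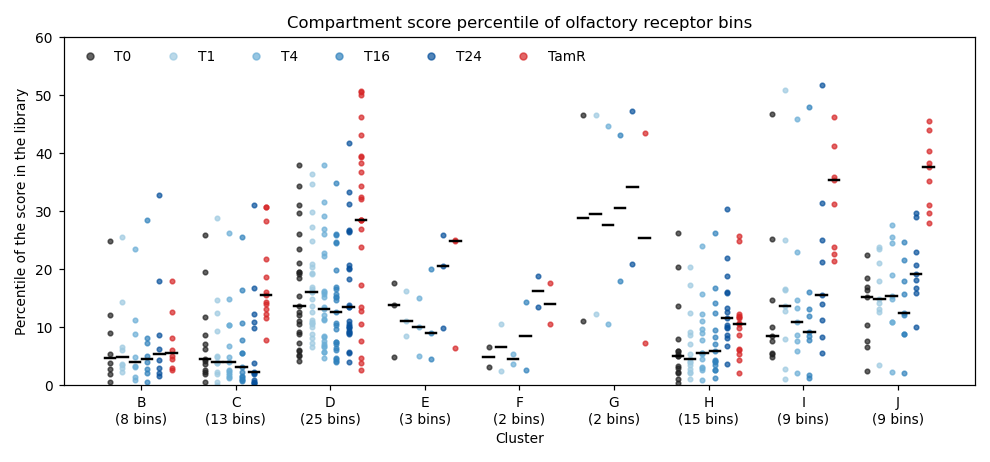
Percentile of the compartment score (vertical axis, 0 is the deepest B bin of a library) for each scored bin with an olfactory receptor gene, by cluster and library. Points are bins, bars are medians over the bins of a cluster and OR2AT4 is left out. The TamR point of the OR10V1 bin in cluster I, at percentile 62.5, lies beyond the top of the axis and is not seen. In TamR the bins of cluster J lie between 28.0 and 45.5, above their medians in all 5 parental libraries.

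The E2 course moved no member across the border. None of the 231 genes had a sign in T1, T4, T16 or T24 other than that in T0, against a background of 7.11% of all scored bins. Bins as deep in B did the same, with 0.00% of the 5585 bins below percentile 20 in T0 changing sign in the course. The median over all member bins moved little before 24 h. The median difference from T0 over the 87 bins was 0.68 percentile points in T1, −0.06 in T4, −0.95 in T16 and 4.26 in T24. Clusters moved more, and in both directions. The median difference of cluster J was 3.73 in T1, 4.27 in T4 and −0.32 in T16, and that of cluster D was −3.14 in T16. Bins above T0 at all 4 times numbered 17 (19.5%, background 23.9%), and bins below T0 at all 4 times numbered 15 (17.2%, background 28.7%). Both shares were below those of all bins, so no common direction over the whole course was seen in the members.

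The members were higher in the 24 h library than in T0. In T24, 36 of 87 bins were at least 5 percentile points above T0 (41.4%, background 13.1%), and 6 were at least 5 points below (6.90%, background 13.2%). The comparison with all bins is uneven, because bins of low percentile have more room above than below: 47 of the 87 member bins were below percentile 10 in T0. Among all 5585 bins below percentile 20 in T0, 19.7% were at least 5 points above T0 in T24 and 12.2% at least 5 points below. The 71 member bins below percentile 20 in T0 had 32 bins up (45.1%) and 6 down, with a median change of 4.76 points against 0.38 for all 5585. Bins of this range that held a gene start but no member had a median of 1.14 points over 572 bins. When percentiles were taken within each chromosome, 30.7% of the genes were at least 5 points up in T24, against 41.6% with percentiles over the genome.

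The higher levels in T24 were in the clusters near the centromere and on the long arm of chromosome 11. In clusters E to J, a division made after the values were seen, 27 of 40 bins were at least 5 points above T0 and 0 were 5 points below, with a median change of 6.25. In clusters B to D, 9 of 46 bins were up and 6 down, with a median of −0.57. Low bins without a member had a median change of 1.66 points on the long arm of chromosome 11, 0.67 on its short arm and −0.85 on the long arm of chromosome 1. The clusters did not follow the arms throughout. On the short arm of chromosome 11, clusters E, F and G had medians of 6.81, 11.3 and 5.27, and cluster D had −0.55. Whether the arm or the receptor genes carry the difference was not tested.

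The largest difference at 24 h was in the OR4A16 and OR4A15 bin, which started as the lowest. Its percentiles were 0.361 in T0, 2.24 in T1, 5.63 in T4, 12.5 in T16, 15.9 in T24 and 9.93 in TamR. The values are in the order of time in E2. The bin of OR5A1, OR4D6 and OR4D10 in cluster I stood at 10.1, 16.4, 14.8, 13.1 and 25.1 from T0 to T24. OR5A1 is a receptor for β-ionone, a floral odorant. OR8B8 in cluster J stood at 6.55, 12.7, 10.8, 15.7 and 20.7, with all E2 libraries above T0. The bins of OR4C12 (cluster F) and of OR8B12 and OR8A1 (cluster J) were 12.3 and 12.2 points above T0 in T24. In the other direction, the bin of OR51B4, OR51B2 and OR51B6, beside the β-globin genes in cluster D, was 6.82 points below T0 in T24. The other 4 of the 5 bins furthest below T0 were those of OR2T29, OR2T34 and OR2T10 (−6.68), OR11L1, OR2W3 and OR2T8 (−6.49), OR52E4, OR52E5 and OR56A3 (−6.13) and OR10J5 (−5.76), and no bin was 10 points below T0.

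**Figure D2:**
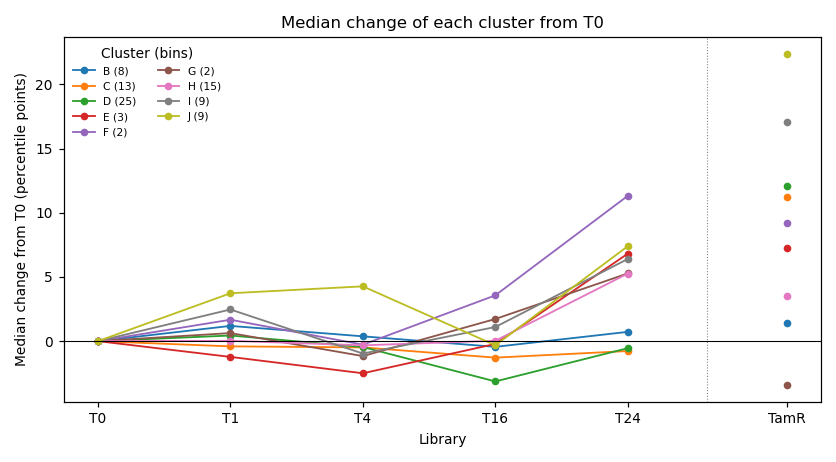
Median change in percentile from T0 (vertical axis, percentile points) over the bins of each cluster, for the E2 libraries and TamR. Lines join the parental libraries in time order, and the points at the right are TamR, which is not part of the course. Clusters E to J lie between 5.26 and 11.3 points in T24 and clusters B to D between −0.77 and 0.72.

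TamR differed from the parental libraries in level more than in sign. One bin passed from B in T0 to A in TamR, against a background of 7.67% of all bins, and 0 passed from A to B (background 6.27%). Of the 5585 bins below percentile 20 in T0, 4.03% passed from B to A, against 0 of the 71 member bins of this range. The count from A to B says little, since 1 member bin, that of OR2AT4, was in A in T0. The gene is OR10V1, the last gene of cluster I, with scores of −1.30, −0.57, −1.34, −1.05 and −0.75 in the parental libraries and 1.85 in TamR. It shares its bin with PATL1 and STX3, and the next bin toward the centromere, which holds the start of OSBP, passed the border too (−0.59 in T0, 2.16 in TamR). In level, 55 of 87 member bins were above the range of the 5 parental libraries in TamR (63.2%, background 36.3%) and 9 were below (10.3%, background 43.0%). At least 10 points above T0 were 43 bins (49.4%, background 18.8%) and at least 10 points below were 2 (2.30%, background 19.7%). The median member bin stood at percentile 8.69 in T0 and 21.7 in TamR, and the median change was 9.71 points.

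Low bins in general were higher in TamR than in T0, and low member bins had a larger median difference. Of the 5585 bins below percentile 20 in T0, 52.6% were above the parental range in TamR and 21.3% below, 34.7% were at least 10 points above T0 and 4.58% at least 10 points below. Their median change was 4.25 points, against 10.1 for the 71 member bins of this range, of which 45 were above the parental range (63.4%) and 36 at least 10 points up (50.7%). Low bins with a gene start but no member were closer to the members, with 61.7% above the parental range, 44.8% at least 10 points up and a median of 8.07 over 572 bins. For the E2 times, 24.2% of the low bins were above T0 at all 4 and 18.9% below, against 16 and 12 of the 71 member bins. Bins chosen as low in T0 share that library with the difference. Against the median of the 4 E2 libraries in place of T0, the median differences were 11.05 points for the 71 member bins, 3.68 for all 5585 and 6.53 for the 572.

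The difference in TamR was unevenly spread over the clusters. In clusters I and J all 18 bins were above the parental range and at least 10 points above T0. The median bin of cluster J stood at percentile 15.2 in T0, 19.2 in T24 and 37.6 in TamR, and that of cluster I at 8.42, 15.6 and 35.4. In cluster C, 11 of 13 bins were above the parental range, with medians of 4.50 in T0, 2.20 in T24 and 15.6 in TamR. In cluster D, 19 of 25 bins were above and 3 below, with medians of 13.7, 13.4 and 28.6. Cluster H, with the second largest number of genes, had 3 of 15 bins above and 2 below, and its medians were 5.11, 11.6 and 10.6, so its level in TamR was below that in T24. Cluster B had 3 of 8 bins above and 2 below, with medians of 4.61, 5.36 and 5.53. The small clusters E, F and G had 1 of 3, 0 of 2 and 0 of 2 bins above, and 1 bin of cluster G was below.

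**Figure D3:**
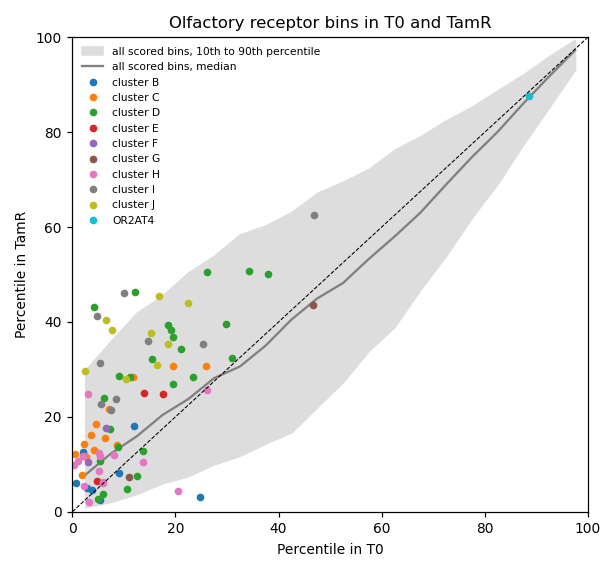
Percentile in T0 (horizontal axis) and in TamR (vertical axis) of the 87 bins with an olfactory receptor gene, by cluster, over the 10th to 90th percentile (grey band) and median (grey line) of all 27898 scored bins in steps of 5 points. Most members are at the left edge above the dashed line of equal percentile, while the bin of OR10T2 is at 24.8 in T0 and 3.05 in TamR, and OR2AT4 is at 88.5 and 87.6.

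The 5 bins furthest above T0 in TamR lay in the class II end of cluster D and in the later bins of clusters I and J. The bin of OR2D2 and OR2D3 stood at percentiles 4.18, 8.12, 7.58, 4.76 and 10.2 from T0 to T24 and at 43.2 in TamR, 39.0 points above T0. Its TamR value lies apart from all 5 parental values. OR5AN1, a receptor for musk odorants, and OR5A2 went from 4.85 in T0 to 41.3 in TamR, with parental values up to 16.7. The next bin, with OR5A1, OR4D6 and OR4D10, went from 10.1 to 46.2. The bin of OR2AG1, OR6A2 and OR10A5 in cluster D stood at 12.1 in T0 and 46.3 in TamR, and OR8B8 in cluster J at 6.55 and 40.4. All of these stayed in B, with TamR scores of −1.71, −2.08, −1.12, −1.11 and −2.26.

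Bins lower in TamR than in T0 were fewer, and within the clusters they lay in B, D, G and H. The bin of OR10T2 and OR10K2, at the start of cluster B, stood at 24.8, 25.6, 23.5, 28.5 and 32.9 in the parental libraries and at 3.05 in TamR, 21.8 points lower than in T0. It is also the bin of CD1B and CD1E, which encode antigen-presenting proteins for lipids. The bin of CD1A and CD1C beside it went from 25.4 to 11.5. The bin of OR5M9, OR5M3 and OR5M8 in cluster H stood between 15.7 and 22.0 in the parental libraries and at 4.39 in TamR. The remaining 3 of the 5 bins furthest below T0 went from 10.6 to 4.74 (OR51L1, OR52J3 and OR52E2) and from 12.6 to 7.63 (OR51B4, OR51B2 and OR51B6), and the last, with OR4A5 and OR4A8, stood at 7.27 in TamR, a difference of −3.76 points.

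Cluster D, which holds both receptor classes, was divided within itself. Its 20 bins with class I genes had a median change of 8.56 points from T0 to TamR, and its 5 bins with class II genes, at the centromere side, of 24.4 points (16.5 to 39.0), all 5 above the parental range. The class I bins were not alike. In the first 11, from OR52B4 to OR51B4, the median change was 1.39 points and 5 were above the parental range, while in the last 9, from OR51M1 to OR52W1, the median was 16.8 and 9 of 9 were above. The division at OR51B4 was made after the values were seen. OR51E2, a receptor known from the prostate, lies in the first stretch, with scores of −7.36 in T0, −7.22 in T24 and −7.03 in TamR, and was picked for its known expression with its values in view. Class and position cannot be told apart here, since the class II genes of this cluster follow the class I genes.

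Between the classes lies a stretch of 3 bins in A in all 6 libraries, with SMPD1, APBB1, HPX and TRIM3 in the first, ARFIP2, TIMM10B and DNHD1 in the second and RRP8, ILK, TAF10, TPP1 and DCHS1 in the third. These are mostly broadly expressed genes. The first of these bins scored 2.34, 1.28, 0.84, 0.68 and 1.17 in the parental libraries and 3.39 in TamR. OR52W1 and OR2AG2 are the receptor genes next to it on either side, and both approached the border in TamR, from −2.95 to −0.43 and from −3.64 to −0.30. Further on, 2 bins inside the cluster without receptor genes passed from B to A in TamR, that of OLFML1 and PPFIBP2 (−2.55 in T0, 1.55 in TamR) and that of CYB5R2 (−0.04 and 1.77).

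**Figure D4:**
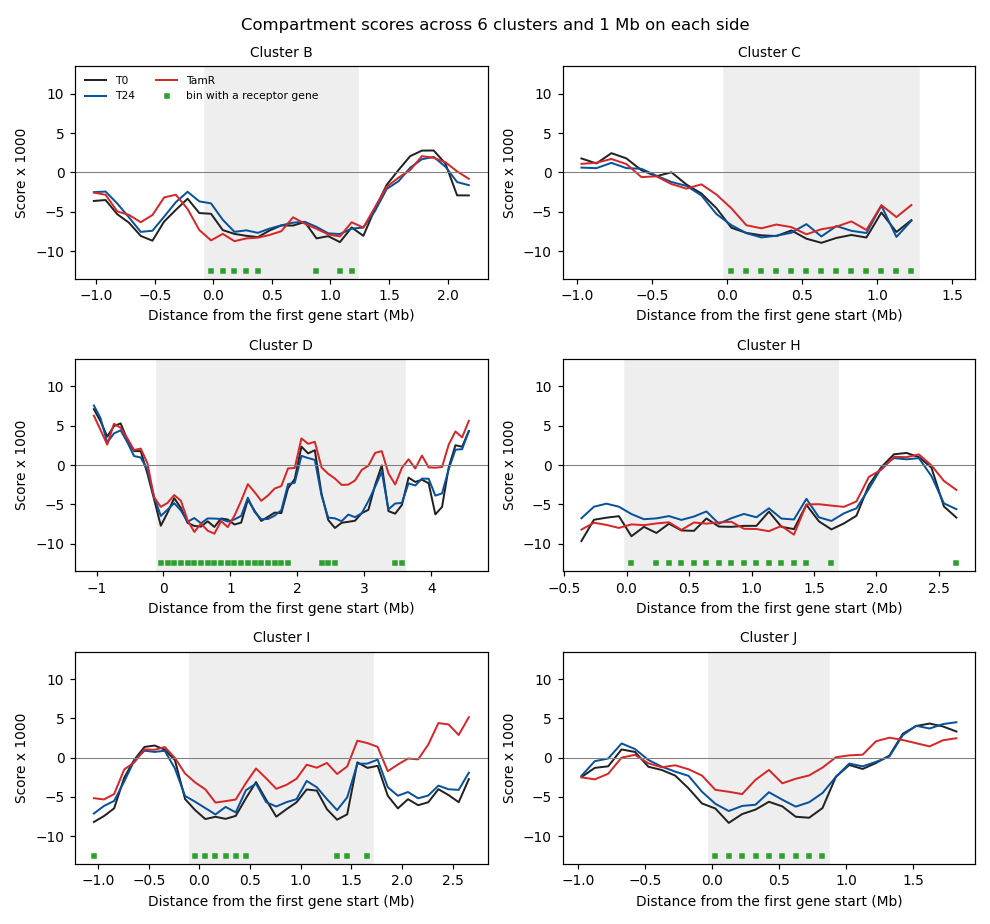
Compartment score multiplied by 1000 (vertical axis) across clusters B, C, D, H, I and J and up to 1 Mb on each side, by distance from the first gene start in Mb, for T0, T24 and TamR. Grey marks the cluster and green squares mark bins with a receptor gene. The TamR line lies above both parental lines over clusters I and J and the far end of D, while over B and H it lies on both sides of them, with −8.65 in TamR and −5.26 in T0 at the bin of OR10T2.

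The unbroken run of B bins on the far side of 3 clusters was shorter in TamR. Beyond the last gene of cluster D, 6 to 7 bins in a row lay in B in the parental libraries before the first A bin, and 0 in TamR. Beyond cluster I there were 10 in each parental library, the bins after OR10V1, and 0 in TamR, where 6 of the 10 bins were in A. Beyond cluster J there were 4 to 5, and 0 in TamR. The first bins on the near side changed little, with 2 in the parental libraries and 1 in TamR for D, 2 and 2 for I and 5 and 5 for J. Cluster C ends at the tip of the chromosome, where 1 bin beyond it had a score. For clusters B and H the far side had 3 to 4 and 4 bins in the parental libraries and 4 and 4 in TamR. Clusters J, I and D had the largest median changes in TamR, and in each the first bin beyond the last gene had passed to A. In J this bin scored 0.05. Beyond D, 6 of the 10 bins were in A in TamR (3 in T0), with B bins between them, and beyond J all 10 were (6 in T0). Cluster C, whose median change of 11.2 was close to the 12.1 of D, could not be compared, since its 1 scored far bin was in B.

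Among the member bins, GC content went with the level and less with the change. Over the 86 scored bins in clusters, Pearson's r between GC content and the score in T0 was 0.456, against 0.713 over all scored bins. With the change in percentile from T0 to TamR it was 0.280, against 0.038. With the change from T0 to T24 it was −0.129, against 0.134. Over the 5585 bins below percentile 20 in T0, r was 0.125 with the score, 0.164 with the change to TamR and 0.237 with that to T24. These correlations are across bins of shared libraries and neighbouring bins are not independent. Over the member bins the 10 pairs of parental libraries correlated at 0.946 to 0.978 and the 5 pairs with TamR at 0.718 to 0.762.

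Olfactory receptor genes elsewhere in the genome were less uniformly in B. Of 157 scored receptor genes on other chromosomes, 24.2% were negative in all 6 libraries, against 99.1% of the members, and their median percentile in T0 was 44.3, against 8.42. Counted by genes, their levels differed from T0 in the same direction as those of the members and by more. In T24, 86 of 157 were at least 5 points above T0 (54.8%, median difference 8.14), against 41.6% of the member genes (3.85). In TamR, 99 were at least 10 points above T0 (63.1%, median 18.8), against 47.2% of the member genes (9.56), and 73.2% against 60.6% were above the parental range. For all protein-coding genes these 3 shares were 9.37%, 12.5% and 33.1%. By bins the gap to the members was smaller. Of 80 bins, 46.25% were up in T24 (median 4.50), against 41.4% of the 87 member bins (4.26). In TamR, 53.75% against 49.4% were up (medians 14.0 and 9.71), and 66.25% against 63.2% were above the parental range. In TamR, 26 of the 80 bins passed from B to A (32.5%, background 7.67% of all bins). Counted by genes, 62 of 157 did, but genes of 1 bin share its score. Among these genes were 20 of 24 on chromosome 14 and 14 of 17 on chromosome 12. Chromosomes 7 and 9 had 9 of 14 and 8 of 26. The 12 genes of chromosome 3 were most like the members, with 12 of 12 in B throughout and a median percentile of 8.66 in T0 and 33.9 in TamR. Among 37 bitter, sweet and umami taste receptors, trace amine receptors and vomeronasal receptors, 6 were in B in all 6 libraries. This share, 16.2%, equals that of all protein-coding genes. Another 15 passed from B in T0 to A in TamR (background 7.67% of all bins), but several of these genes share a bin and its score. Of the 15, 6 had also changed sign in the E2 course. TAS2R7, TAS2R8, TAS2R9 and TAS2R10, in 1 bin, scored 0.21 in T4, 0.76 in T24 and 0.35 in TamR. TAS2R41 and TAS2R60 scored 0.61 in T1 and 7.11 in TamR. TAAR6, TAAR8 and TAAR9 were near the border in TamR, at 0.25. TAS2R39 on chromosome 7 went from −5.19 to 8.31.

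The machinery of odorant signalling was mostly in A, as were protein-coding genes in general. The median percentile in T0 was 72.3 for the list below and 79.8 for all protein-coding genes. Of 15 genes for receptor transport and signalling, 1 was negative in all 6 libraries (6.67%, against 16.2% of all protein-coding genes). This was CNGA4, a subunit of the olfactory cyclic nucleotide-gated channel. CNGA4 lies in cluster D in the bin of OR52W1, and its scores were −2.95 in T0 and −0.43 in TamR. CNGA2, its partner subunit on chromosome X, went from −5.39 in T0 to 3.68 in TamR, and PDE1C from −5.82 to 0.14. GNAL, the olfactory G protein α subunit, went the other way, from 2.02 to −1.89. ADCY3, the adenylyl cyclase of the pathway, was in A in all libraries (7.22 in T0, 4.86 in TamR), as were OMP, the marker of mature olfactory neurons (6.59 and 6.34), and the receptor transporters RTP1 (0.32 and 4.04) and RTP2 (1.28 and 3.98). Of 14 regulators of receptor choice, EBF1 (−1.59 in T0) was in B throughout (7.14%, against 16.2% of all protein-coding genes). EBF2 and EBF3 were in A in T0 and in B in TamR (14.3%, against 4.53% of all protein-coding genes). Both had also changed sign in the parental course, EBF3 from T1 on (−0.13 in T1, −0.03 in T24) and EBF2 in T24 (−0.15, against −0.13 in TamR). LHX2 (6.92) and LDB1 (11.4), the pair that binds receptor enhancers, and EHMT2 (15.1), a methyltransferase of repressive H3K9, were in A in T0 and in every other library.

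Most genes of the neighbouring families lay in B with the clusters. All 5 β-globin genes, set inside cluster D, were in B in all libraries. HBB, HBD and HBG1 lie in the bin of OR51V1 (−6.80 in T0, −7.14 in TamR), while HBE1 and HBG2 were assigned to the bin of OR52D1 (−7.33 and −4.54) by annotated starts that lie far from their other ends, which are near HBB. Of 7 TRIM genes of the region, which encode antiviral and ubiquitin ligase proteins, 6 were in B and TRIM3 in A. All 7 were above the parental range in TamR, against 33.1% of all protein-coding genes. The 6 in B lie in bins that also hold receptor genes, with TRIM6 and TRIM34 in the same bin. Their values therefore repeat those of cluster D. All 9 CD1 and PYHIN genes around cluster B were in B throughout. In TamR, 5 of them were below the parental range (55.6%, against 42.9% of all protein-coding genes) and 0 above (against 33.1%). Among the 5, CD1A shares its bin with CD1C, and CD1B shares that of OR10T2 with CD1E. Of 6 luminal markers, KRT8, KRT18, TFF1 and FOXA1 were in A in all libraries, and KRT8 and KRT18 share a bin. The median percentile of the 6 in T0 was 85.1, against 79.8 for all protein-coding genes, of which 16.2% were in B throughout. Lying in A is thus common among genes and does not identify the cells. ESR1, the estrogen receptor, went from 4.90 in T0 to −0.05 in TamR, and GATA3 from 2.12 to −0.79. Compartment is not expression, so these signs do not measure the activity of the markers.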

How the data were processed

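TCC libraries of T47D cells were analysed, 1 for each of 6 conditions. The authors deposited a score for every 100 Kb of hg19, taken from the leading eigenvector. The methods of the study name bowtie2 for iterative mapping and HiCLib for binning, removal of poorly covered bins, truncation of the top interchromosomal counts, iterative correction and the eigenvector, with contacts within chromosomes left out. Whether replicate cultures were pooled for T47D is not given in the sources used here.

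Each gene was given the bin of its GENCODE (GRCh37) start, whose chromosome lengths equal those of the bins. Of 30376 bins, 27898 had a score in all 6 libraries, and the others were left out. With 1 library per condition, counts, medians and percentiles were given with no test. Thresholds were 10 points for TamR and 5 points for T24. Members, lists and thresholds were chosen with earlier results of these data known. The genes named were those in the highest and lowest T0 bin of each cluster, those with a sign change, those in the 5 bins furthest above and below T0 in TamR and T24, the gene outside the clusters and genes of the fixed lists, with at most 3 receptor genes per bin. Alternatives were other bins per gene, borders, windows, references, scales, cluster gaps and times left out. The calls were tested on simulated tracks, with scipy 1.17.1, pandas 2.3.3 and numpy 2.4.6 under Python 3.11.15. The luminal markers were looked up by compartment alone, which is not a check of cell identity. The window of 1 further member is not reported here.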

Additional observations from a re-analysis of the deposited data

How the results depend on the processing

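No paired analysis was possible because no condition has more than 1 library. Of 73 values recomputed under alternatives on the scale of the report, 65 lay inside the 95% interval over genes or bins of the value reported, an interval that is too narrow because genes of 1 bin share a score and neighbouring bins are alike. With bins of weak score left out, 0% of the genes switched from T0 to TamR, in place of 0.433%, since the bin of OR10V1 is one of them. In windows of 500 Kb, 92.2% of the genes were in B in all 6 libraries and 6.90% switched from T0 to TamR, as windows mix receptor bins with neighbours in A. With the score as deposited in place of the percentile, 19.0% of the genes were below the parental range in TamR, 25.1% were above T0 at all E2 times and 11.3% below, in place of 9.52, 17.7 and 20.8%. On the scale of the score multiplied by 1000, the median differences from T0 were 1.12 in TamR and 0.811 in T24, in the same direction as in percentiles. With percentiles within the chromosome, 30.7% of the genes were at least 5 points up in T24, in place of 41.6%. Gaps of 500 Kb and 2 Mb gave 14 and 7 clusters in place of 10. With the E2 libraries as the reference, the median difference in TamR over all bins below percentile 20 in T0 was 3.68 points, in place of 4.25. This reference and the parental median, with which 46.8% of the genes were at least 10 points up in TamR in place of 47.2%, were added after the data were seen. The score as deposited gives no counts past thresholds in percentile points. Depth is unknown from these files, so what it limits could not be stated.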
